A study of Mus musculus with 6 samples.

Results

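The genes described here build the DNA replication machinery and drive the cell cycle: 41 named genes of origin licensing, helicase activation, fork synthesis, nucleotide supply and cyclin control. They were followed in all probe sets whose platform annotation names such a gene alone, which gave 90 of the 45037 probe sets of the table and 40 of the 41 genes, out of 18193 genes named in all. Ccnb1, the mitotic cyclin B1, is not analysed here. RNA came from mouse embryonic stem cells (mESCs), wild type or Setd2 knockout, of strain 129SV/C57BL/6, untreated and grown on feeder cells that were then depleted on gelatin, with 3 arrays per genotype called biological repeats. Setd2 is the enzyme that trimethylates histone H3 along transcribed genes, and the study looked for deregulated genes needed for primitive endoderm differentiation. The labels give neither the deleted part of Setd2 nor the number of lines or clones, nor whether the repeats were separate cultures, so p-values measure the spread between these samples only.

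Before S phase, the origin recognition complex, Cdc6 and Cdt1 load the ring of Mcm2 to Mcm7 onto origins, a step called licensing, which geminin (Gmnn) blocks by binding Cdt1. Cyclin-dependent kinases then bring Cdc45 and the GINS complex to the ring, and the resulting helicase opens the DNA for the polymerases. E2F factors switch many of these genes on at the G1 to S transition, and embryonic stem cells, with their short G1 phase, are known for keeping them high.

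The values were log2 MAS5 signals, and each gene is given at the brightest of its tested probe sets. The single Setd2 probe set read 10.31, 10.30 and 10.31 in wild type and 9.37, 9.50 and 9.60 in knockout cells, so it fell by 0.82 (limma adjusted p = 0.0272). Over all 27022 tested probe sets, 0.648% passed an adjusted p of 0.05. With the replicate number as a block, which compares arrays of the same number, 7.88% did. All 40 genes had a probe set above the filter on dim signals, and 80 of the 90 probe sets passed it. Embryonic stem cell markers averaged 12.89 to 12.93 in wild type and 12.70 to 12.75 in knockout arrays. Of these 12 markers Zfp42 fell by 1.99 and no other passed limma in either fit. The others differed by -0.18 to 0.11, so the lower knockout average rests mostly on Zfp42. The 21 tested feeder fibroblast markers of 24 listed averaged 8.13 to 9.00 in wild type and 8.01 to 8.99 in knockout arrays, with 2 higher and 1 lower with the block, and 0 of the list were at 0 on all arrays. Differentiation markers (10 of 12 tested) averaged 6.65 to 7.10 and 6.52 to 6.83. Among them Gata6 fell by 1.63 (limma adjusted p = 0.0372). With the block Gata6 fell too, Sox17 fell by 1.55, Sox1 fell by 1.06 and Cdx2 rose by 1.01. Zfp42 and Sox1 lie on chromosome 8, whose genes were lower as a whole, as described below. The part of these markers in the results below was not tested.

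Differences in the replication genes between knockout and wild type cells were small. Of 40 genes 0 passed limma's threshold without the block (background 0.736% of 12915 genes). An unadjusted p under 0.05 was found for 12 of the 40 (background 13.4% of all genes), 11 of them lower (7.29%). At the level of probe sets, 1 of 80 passed: the 1424144_at probe set of Cdt1, the licensing factor. With the replicate block 9 of the 40 genes passed (background 9.87% of all genes). Of the 40, 8 fell (background 5.75% of all genes) and 1 rose (4.13%). Those that fell were Cdt1, Mcm5, Mcm6, Mcm10, Gins2, Gins3, Ccne2 and Cdc25a, and Mcm4 rose. Of these, Cdt1, Mcm5, Gins2 and Gins3 lie on chromosome 8, described below, where 38.1% of genes fell. No gene differed by more than 0.5 on the log2 scale at its brightest probe set, and the median difference was -0.11, against 0.00 over all tested genes. The 95% interval lay within 0.5 of 0 on either side for 27 genes without the block and for 31 with it. At 12 of the 40 genes all knockout values lay below all wild type values (background 9.97% of all genes), and at 1 they lay above (9.26%). Of those 12, 5 lie on chromosome 8, where this held for 44.4% of genes. The members are bright, with a median level of 11.79 against 8.80 over all tested genes. The part of brightness in these shares was not tested. In RNA from whole cultures, fewer cells in a cycle phase and less RNA per cell cannot be told apart.

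**Figure D1:**
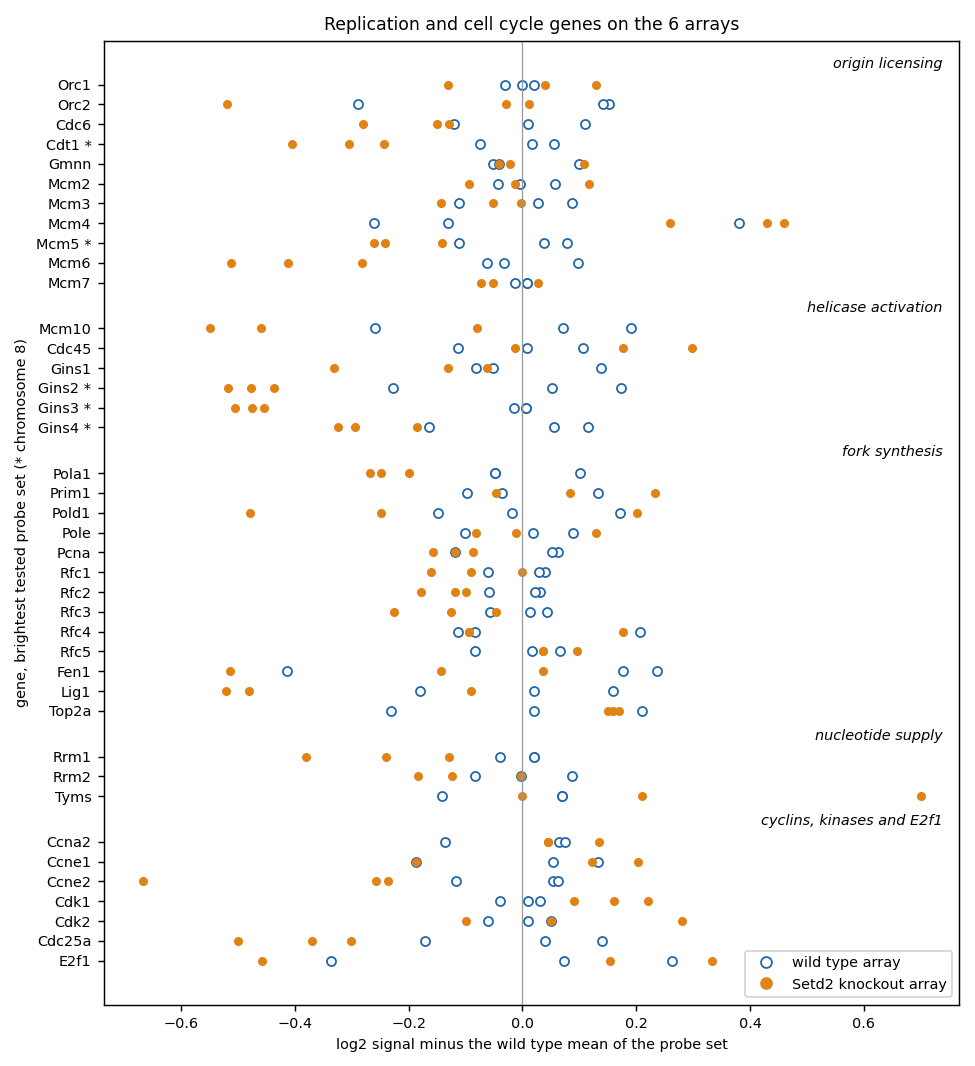
Log2 signal of each gene on each of the 6 arrays, as the distance from the wild type mean of its brightest tested probe set (x axis), with genes grouped by role (y axis) and genes of chromosome 8 starred. Open points are the 3 wild type arrays and filled points the 3 knockout arrays. At 12 genes all filled points lie left of the open ones: Cdc6, Cdt1, Mcm5, Mcm6, Gins2, Gins3, Gins4, Pola1, Rfc2, Rrm1, Ccne2 and Cdc25a.

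The promoters of 6 members that passed the threshold in either fit are shown because E2F sites are a known shared element of G1 to S genes. They are the 250 bases before the gene start in RefSeq (GRCm38.p6), read 5′ to 3′ on the strand of the gene, and capitals mark matches to the E2F motif TTTNNCGC on either strand.
Gins3, chr8:95633309-95633558, plus strand: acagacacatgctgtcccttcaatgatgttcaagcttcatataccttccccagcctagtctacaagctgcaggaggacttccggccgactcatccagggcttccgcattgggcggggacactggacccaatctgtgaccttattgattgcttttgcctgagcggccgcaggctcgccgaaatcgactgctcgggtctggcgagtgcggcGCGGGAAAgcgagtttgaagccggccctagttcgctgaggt
Cdt1, chr8:122567765-122568014, plus strand: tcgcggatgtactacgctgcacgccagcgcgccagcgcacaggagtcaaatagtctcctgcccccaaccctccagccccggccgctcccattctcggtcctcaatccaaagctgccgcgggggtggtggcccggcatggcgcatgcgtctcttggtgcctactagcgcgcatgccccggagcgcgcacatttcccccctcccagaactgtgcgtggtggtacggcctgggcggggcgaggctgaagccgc
Mcm5, chr8:75109259-75109508, plus strand: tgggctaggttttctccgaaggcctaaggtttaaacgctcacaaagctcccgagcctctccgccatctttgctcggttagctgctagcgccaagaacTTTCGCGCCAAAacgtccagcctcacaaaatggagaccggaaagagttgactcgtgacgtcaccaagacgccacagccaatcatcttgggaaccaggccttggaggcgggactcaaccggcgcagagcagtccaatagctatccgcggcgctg
Mcm6, chr1:128359706-128359955, minus strand: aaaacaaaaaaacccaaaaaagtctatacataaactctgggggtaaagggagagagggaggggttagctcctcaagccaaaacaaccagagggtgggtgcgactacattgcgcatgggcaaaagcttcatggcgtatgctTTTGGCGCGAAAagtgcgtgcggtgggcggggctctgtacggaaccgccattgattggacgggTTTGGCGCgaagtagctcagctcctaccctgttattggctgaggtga
Cdc25a, chr9:109875329-109875578, plus strand: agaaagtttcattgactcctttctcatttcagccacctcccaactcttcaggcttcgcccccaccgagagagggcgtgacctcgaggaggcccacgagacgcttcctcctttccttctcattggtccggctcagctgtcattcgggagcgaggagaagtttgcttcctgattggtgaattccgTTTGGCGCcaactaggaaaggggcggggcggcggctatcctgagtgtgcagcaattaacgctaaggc
Mcm10, chr2:5012792-5013041, minus strand: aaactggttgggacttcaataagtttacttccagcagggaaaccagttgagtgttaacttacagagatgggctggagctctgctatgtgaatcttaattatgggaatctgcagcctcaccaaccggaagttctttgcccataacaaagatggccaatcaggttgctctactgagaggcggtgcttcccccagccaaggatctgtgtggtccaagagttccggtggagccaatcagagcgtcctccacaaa
Searched in 300 bases, from 250 before to 50 after the start, the E2F motif was found in 16 of 36 promoters of 31 members that matched the table by symbol (44.4%), against 5.2% of all 32851 promoters. The capitals show overlapping matches in opposite orientation in Mcm5 and Mcm6, where Mcm6 has 3 in all. In Cdt1 the match TTTGGCGC lay after the start, from base 33 on, and so outside the printed stretch, while Mcm10 had none. By role it was found in 7 of 9 licensing genes (Orc1, Cdc6, Cdt1, Mcm3, Mcm5, Mcm6 and Mcm7), and in 4 of 11 fork genes (Pola1, Pold1, Rfc3 and Lig1). CCAAT was found in 63.9% of the member promoters against 37.4% of all. TTTGAA, the core of the cell cycle homology region (CHR) of mitotic genes, was found in 16.7% against 17.9%. In the promoters shown, no match of these motifs overlapped a match of a different one. The 16 genes with the E2F motif had a median difference of -0.18, and 5 of them fell with the block (background 5.75% of all genes). The 15 without it had a median of -0.00, and 1 fell. Of those 5, Cdt1, Mcm5 and Gins3 lie on chromosome 8, described below. On the other chromosomes the medians were -0.13 over 13 genes with the motif and -0.00 over 15 without. There 2 of the 13 and 1 of the 15 fell with the block (background 3.88% of the genes of the other chromosomes). Gins2, Ccne2 and Mcm4, called with the block, had no promoter entry. Whether genes with and without the motif differ was not tested. 

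Of the 11 licensing genes 3 fell (background 5.75% of all genes) and 1 rose (4.13%) with the block. Of those that fell, Cdt1 and Mcm5 lie on chromosome 8, where 38.1% of genes fell. Cdt1 had the 1 probe set called in both fits. Its 1424144_at probe set read 12.19, 12.13 and 12.11 in wild type and 11.55, 11.59 and 11.62 in knockout cells. All 3 knockout arrays lay more than the whole spread of either genotype below the wild type arrays. The signal fell by 0.55 ± 0.08 (SE), 1.47-fold (limma adjusted p = 0.0289, and 0.00111 under the block). In the fit with no block, removal of wild type replicate 1, 2 or 3 raised the limma adjusted p to 0.0764, 0.188 and 0.212. That of knockout replicate 2 or 3 raised it to 0.13 and 0.121, and only without knockout replicate 1 was the call kept (0.0252). Dropping limma's intensity trend gave 0.164. With 1 array left out the difference stayed between -0.57 and -0.53. Calls over all tested probe sets fell too, from 175 to 95, 44 and 31 without wild type replicate 1, 2 or 3. They fell to 43 and 36 without knockout replicate 2 or 3, and rose to 431 without knockout replicate 1. The brighter Cdt1 probe set, 1424143_a_at, read 13.80, 13.93 and 13.89 against 13.63, 13.57 and 13.47. It fell by 0.31 with the block (adjusted p = 0.0115) and missed the threshold without it (0.106). Again the genotypes did not overlap.

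Of the Mcm2 to Mcm7 subunits, which form 1 ring in equal numbers, Mcm5 and Mcm6 fell and Mcm4 rose with the block. Whether the subunits differ from each other was not tested. Mcm6 read 12.86, 12.89 and 13.02 in wild type and 12.64, 12.41 and 12.51 in knockout cells, a difference of -0.40 ± 0.09 (SE) with no overlap. It had a limma adjusted p of 0.105, and of 0.00714 under the block. With knockout replicate 1 left out it passed in the fit with no block too (0.0394). The other tested Mcm6 probe set, 1438852_x_at, differed by -0.16 and missed the threshold under the block (adjusted p = 0.177). Mcm5 read 13.97, 14.12 and 14.16 against 13.82, 13.84 and 13.94, a difference of -0.21 that passed with the block (adjusted p = 0.0352) and not without it (0.273). A dimmer Mcm5 probe set, 1415945_at, gave -0.46, with 11.68, 11.94 and 11.93 against 11.29, 11.38 and 11.50 (adjusted p = 0.00364 with the block and 0.131 without). The third, 1459658_at, gave -0.44 and missed the threshold under the block (adjusted p = 0.141). In Mcm5 as in Cdt1, the brighter probe set thus showed the smaller difference. Mcm2, Mcm3 and Mcm7 stayed close to 0, at 0.00 (95% interval -0.20 to 0.20), -0.06 (-0.25 to 0.13) and -0.03 (-0.17 to 0.10).

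Mcm4 was the 1 gene called higher. Its 1436708_x_at probe set read 13.18, 12.54 and 12.67 in wild type and 13.26, 13.06 and 13.23 in knockout cells, so the genotypes overlapped at wild type replicate 1. The difference of 0.38 passed with the block (limma adjusted p = 0.0242) and not without it (0.386). The other Mcm4 probe set, nearly as bright, differed by -0.03 (adjusted p = 0.874 with the block), so the 2 probe sets did not give the same call.

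The remaining licensing genes missed the threshold in both fits. Orc1, the largest subunit of the origin recognition complex, differed by 0.01 (95% interval -0.24 to 0.26), and Orc2 by -0.18 (-0.59 to 0.22). Cdc6, the loading ATPase, read 10.98, 11.11 and 11.21 in wild type and 10.95, 10.82 and 10.97 in knockout cells, without overlap, a difference of -0.19 (-0.43 to 0.06). The Cdt1 inhibitor Gmnn differed by 0.01 (-0.17 to 0.20), while Cdt1 itself fell. Whether these 2 differences differ from each other was not tested.

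The lowest differences at the brightest probe sets were those of Gins2 and Gins3, subunits of the GINS complex that activates the helicase. With the block 3 of the 6 helicase genes fell (background 5.75% of all genes). Of these, Gins2 and Gins3 lie on chromosome 8, where 38.1% of genes fell, and Mcm10 does not. Gins2 read 11.26, 11.54 and 11.66 in wild type and 11.01, 10.97 and 11.05 in knockout cells. The difference was -0.48 ± 0.12 (SE), a 1.39-fold lower signal (limma adjusted p = 0.161, and 0.00884 under the block), and its dimmer probe set gave -0.44 (0.176 and 0.00839). Gins3 read 8.72, 8.70 and 8.72 against 8.24, 8.21 and 8.26, with spreads far smaller than the gap between genotypes. It differed by -0.48 as well (adjusted p = 0.205, and 0.0405 under the block), and its dimmer probe set by -0.57 (0.210 and 0.0355). Gins4 read 12.22, 12.44 and 12.50 against 12.20, 12.06 and 12.09 and missed the threshold in both fits, at -0.27 (95% interval -0.49 to -0.04; adjusted p = 0.337, and 0.0817 under the block). Gins1, the subunit not encoded on chromosome 8, differed by -0.18 (-0.43 to 0.08; 0.188 with the block) and overlapped.

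Mcm10, which helps the helicase to start unwinding, read 11.17, 11.50 and 11.62 in wild type and 10.97, 10.88 and 11.35 in knockout cells. Knockout replicate 3 lay inside the wild type range. The difference of -0.36 passed with the block (limma adjusted p = 0.0361) and not without it (0.438). The other tested Mcm10 probe sets, 1454244_at and 1433407_at, differed by 0.03 and -0.48 and missed the threshold under the block (adjusted p = 0.962 and 0.324). Cdc45 differed by 0.15 (95% interval -0.15 to 0.46), the 1 helicase gene above 0.

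At their brightest probe sets the 13 genes of fork synthesis gave 0 calls in either fit, and their median was -0.12. In limma 2 of the 13 had an unadjusted p under 0.05 (background 13.4% of all genes). A dimmer Rfc2 probe set, 1457638_x_at, rose by 1.04 with the block, as given below. Pcna, the sliding clamp, read 14.41, 14.59 and 14.58 in wild type and 14.41, 14.37 and 14.44 in knockout cells. It differed by -0.12 (95% interval -0.27 to 0.03). Among the polymerases, Pola1, the catalytic subunit of the priming polymerase, read 10.98, 10.83 and 10.83 against 10.63, 10.68 and 10.61. It did not overlap and differed by -0.24 (-0.47 to -0.00; limma adjusted p = 0.420, and 0.110 under the block). Pold1, Pole and Prim1, catalytic subunits of the lagging and leading strand polymerases and of the primase, differed by -0.17, 0.01 and 0.09. Lig1, which seals Okazaki fragments, read 12.12, 12.32 and 12.46 against 12.21, 11.78 and 11.82. Knockout replicate 1 lay with the wild type arrays, the difference was -0.36, and it missed the threshold with the block (adjusted p = 0.0968). The clamp loader genes Rfc1 to Rfc5 lay between -0.13 and 0.06 at their brightest probe sets, the flap nuclease Fen1 at -0.21 and the topoisomerase Top2a at 0.16. Fen1 separated by replicate number, not by genotype: replicate 1 gave 11.36 (wild type) and 11.26 (knockout), and the remaining 4 values were 11.63 to 12.01.

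Nucleotide supply gave 0 calls among 3 genes in either fit, with 1 at an unadjusted p under 0.05 in limma (background 13.4% of all genes). Rrm1, the large subunit of ribonucleotide reductase, read 12.00, 12.06 and 12.06 in wild type and 11.66, 11.80 and 11.91 in knockout cells. It did not overlap, and its difference of -0.25 (95% interval -0.46 to -0.04) missed the threshold with the block (limma adjusted p = 0.0555). The other tested Rrm1 probe set, 1448127_at, differed by -0.03 and overlapped (adjusted p = 0.849 with the block). The small subunit Rrm2 differed by -0.10 (-0.27 to 0.07). Its dimmer probe set 1448226_at differed by -0.22 without overlap and missed the threshold with the block (limma adjusted p = 0.0505). The third, 1416120_at, differed by -0.12 and overlapped. Tyms, thymidylate synthase, was dim at 6.53 ± 0.12 and 6.83 ± 0.36 (mean ± SD, n = 3 each), and its interval of -0.26 to 0.87 spans both directions.

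Among the cyclins and their kinases, the S phase entry genes Ccne2 and Cdc25a fell with the block, 2 of 7 (background 5.75% of all genes). Cdc25a, the phosphatase that activates Cdk2, read 11.43, 11.64 and 11.74 in wild type and 11.10, 11.30 and 11.23 in knockout cells, a difference of -0.39 ± 0.11 (SE) without overlap (limma adjusted p = 0.221, and 0.0103 under the block). Its other tested probe set differed by -0.03 (adjusted p = 0.852 with the block). Cyclin E2 (Ccne2) read 9.54, 9.71 and 9.72 against 8.99, 9.42 and 9.40. It also differed by -0.39, at an adjusted p of 0.0496 with the block, just inside the threshold, and 0.396 without. Its relative Ccne1 differed by 0.05 (-0.25 to 0.34). Cdk1, the mitotic kinase, read 12.87, 12.94 and 12.92 against 13.00, 13.07 and 13.13, the 1 gene with every knockout array above every wild type array. Its difference of 0.16 missed the threshold (adjusted p = 0.437, and 0.139 under the block). Ccna2 differed by 0.07, Cdk2 by 0.08 and E2f1 by 0.01, with an interval for E2f1 of -0.54 to 0.56. The direction of the Ccna2 value was not shared by its dimmer probe set (-0.19).

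**Figure D2:**
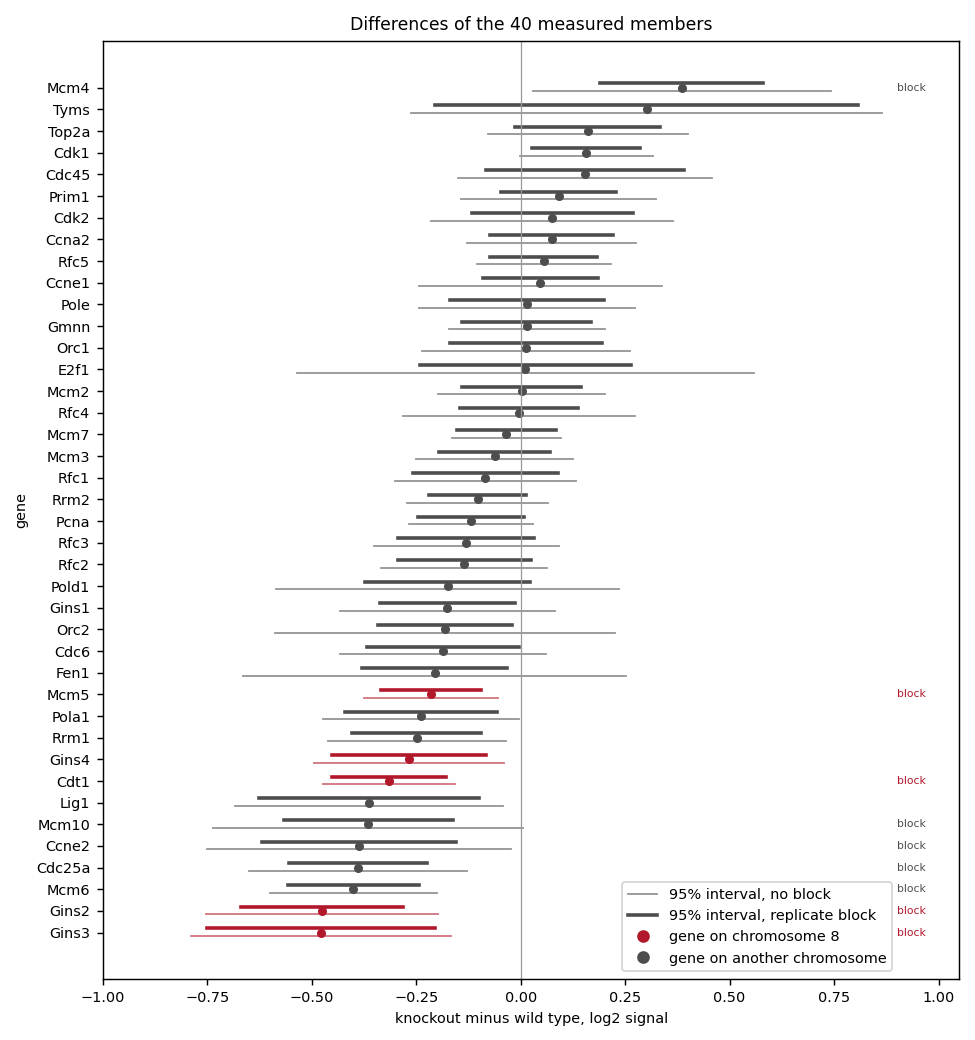
Knockout minus wild type difference in log2 signal (x axis) of the 40 genes (y axis), with 95% intervals without the block (thin) and with the replicate block (thick), red for chromosome 8. The word block marks the 9 genes with an adjusted p under 0.05 in that fit: Gins3 and Gins2 lie lowest at -0.48 and Mcm4 highest at 0.38.

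The calls made with the block depended on which array was left out, each time leaving 2 pairs, and the cause was not tested. In that fit Cdt1 (1424144_at) and Mcm5 (1415945_at) passed with each array left out in turn. Mcm6 and Cdc25a (1417131_at) failed without replicate 3 of either genotype. Mcm4, Mcm10, Gins2 (both probe sets), Gins3 (1429149_at) and the brighter probe sets of Cdt1 and Mcm5 failed without replicate 2 or 3 of either genotype. Ccne2 and Gins3 (1453050_at) failed whichever array was left out.

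The wider pathway was followed in 119 further genes, of which 115 were tested. None passed limma without the block, with 25 at an unadjusted p under 0.05 (background 13.4% of all genes). With the block 14 fell (background 5.75%) and 8 rose (4.13%), and the median difference was -0.04. Of those that fell, Orc6, Rnaseh2a, Asf1b, Dctd and Tfdp1 lie on chromosome 8, described below, where 38.1% of genes fell. On the other chromosomes 9 of 108 fell and 8 rose, against 3.88% and 4.38% of all genes there, and the median was -0.02. In the origin and helicase group 3 of 17 fell with the block and 0 rose. These were Timeless by 0.35 and Tipin by 0.26, partners that protect the fork, and Orc6 by 0.34 (limma adjusted p with the block = 0.0226, 0.0177 and 0.0256). Of 20 fork genes 4 fell and 0 rose: Rnaseh2a, a subunit of the nuclease that removes RNA from DNA, by 0.65, the histone chaperone Asf1b by 0.55, the nuclease Dna2 by 0.39 and the single-strand binding subunit Rpa3 by 0.27. Of 14 nucleotide genes 3 fell: the deaminase Dctd by 0.72, thymidine kinase Tk1 by 0.58 and thymidylate kinase Dtymk by 0.27. Of 26 genes of G1 control 3 fell and 3 rose. Tfdp1, the dimer partner of E2F factors, fell by 0.69 and cyclin D3 (Ccnd3) by 0.48, while the kinase inhibitor Cdkn1a rose by 0.56 and Rb1, which restrains E2F, by 0.47. Of 38 mitotic genes 5 rose and 1 fell with the block, and their median was 0.05. Ttk, a checkpoint kinase, rose by 0.45 and the motors Cenpe and Kif11 by 0.40 and 0.39, while Pttg1 (securin) fell by 0.49. Each value here had a limma adjusted p between 0.000303 and 0.0455 under the block and missed the threshold without it.

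The members on chromosome 8 were lower in knockout cells together with that chromosome as a whole. Cdt1, Mcm5, Gins2, Gins3 and Gins4 lie on chromosome 8, whose 709 tested genes had a median of -0.34, against 0.01 over the other chromosomes. Every knockout array lay below every wild type array for all 5 (44.4% of genes on chromosome 8), 4 of the 5 fell with the block (38.1%), and their median was -0.31. Both shares stand beside a chromosome on which such falls were common. At the brightest probe sets the 5 members did not go past its median as a group. Their median was -0.44 without _x_at and _s_at probe sets and -0.43 with the mean over a gene's probe sets. No median of the chromosome is given for these settings. Their mean level exceeded that of the other 35 members by 0.28, 0.40 and 0.40 in the wild type arrays and by 0.10, 0.11 and 0.02 in the knockout arrays. The other pathway genes there, Orc6, Rnaseh2a, Asf1b, Dctd, Rbl2, E2f4 and Tfdp1, were also all below 0, with a median of -0.65 and 5 of 7 called lower with the block. A difference of chromosome 8 between the cell lines and an effect of Setd2 cannot be told apart here.

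Genes beside these members on the chromosome had differences of similar size. The 5 tested genes on each side of Gins3 all lay below 0, with a median of -0.48, as at Gins3 itself. Around Cdt1 all 10 were below 0 with a median of -0.27. Around Mcm5, Gins2 and Gins4 it was 9, 8 and 9 of 10, with medians of -0.31, -0.35 and -0.35. Of the 10 around each member, 3 fell with the block at Cdt1, 5 at Mcm5, 4 at Gins2, 6 at Gins3 and 2 at Gins4, against 38.1% of the genes of the chromosome. The adenine salvage gene Aprt, a neighbour of Cdt1, differed by -0.37, and Usp10, a deubiquitinase gene the outermost of the 5 tested on its side of Gins2, by -0.63.

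Away from chromosome 8 the median shift of the members was small. The 35 genes had a median of -0.06 (-0.10 on values centred on array medians, -0.034 with the mean over a gene's probe sets, and -0.029 with the block when replicate 2 of either genotype was left out), and 20 lay below 0 and 15 above. With the block 4 of the 35 fell and 1 of the 35 rose, against 3.88% and 4.38% of the genes of the other chromosomes. Those that fell were Mcm6, Mcm10, Ccne2 and Cdc25a. At 7 of the 35 all knockout values lay below the wild type values (background 7.98%) and at 1 of the 35 above (9.72%). By role their medians were -0.03 for licensing, -0.18 for helicase activation, -0.12 for fork synthesis, -0.10 for nucleotide supply and 0.05 for cyclins and kinases. The helicase median rests on Mcm10, Cdc45 and Gins1 alone.

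**Figure D3:**
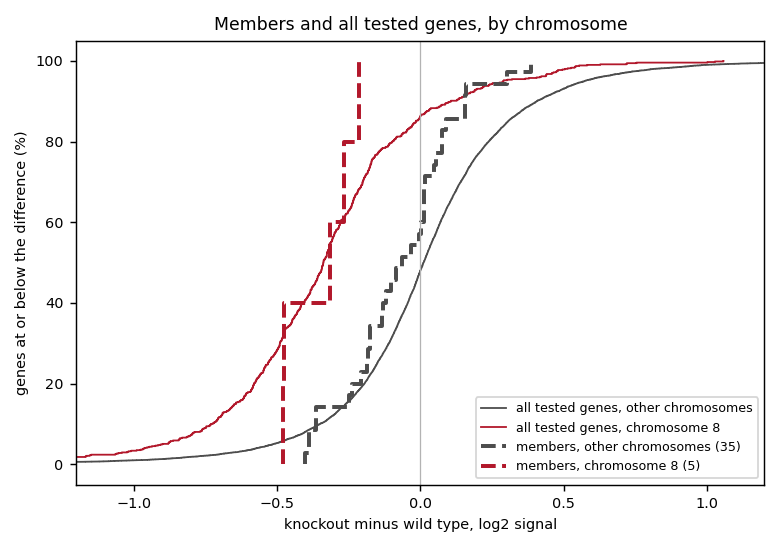
Share of genes (y axis, percent) at or below each knockout minus wild type difference in log2 signal (x axis), for all tested genes (thin) and the members (dashed), on chromosome 8 (red) and elsewhere (grey). The 5 members on chromosome 8, between -0.48 and -0.21, lie around the chromosome's median of -0.34, and the other 35 lie between -0.40 and 0.38 with a median of -0.06.

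Probe sets of 1 gene did not always give the same answer. Of 29 genes with several tested probe sets, 11 had differences of both signs. The Rfc2 probe set 1457638_x_at read 7.92, 7.21 and 7.83 in wild type and 8.76, 8.99 and 8.32 in knockout cells. It rose by 1.04 with the block (limma adjusted p = 0.0146, and 0.132 without), and lost the call with the block without replicate 2 of either genotype. The brightest Rfc2 probe set differed by -0.13 and the third by 0.02. A dim Gins1 probe set, 1457981_x_at, differed by 0.82 (adjusted p = 0.0979 with the block), against -0.18 at the bright one. Small differences of both signs were found at Mcm2 (0.00 and -0.05), Cdc45 (0.15 and -0.07), Top2a (0.16 and -0.12), Ccne1 (0.05 and -0.07) and E2f1 (0.01 and -0.02), and at Mcm3 1 probe set, 1420029_at, gave 0.22 where the other 4 gave -0.16 to -0.04. The 23 other tested probe sets that had the sign and call of their gene's brightest one lay between -0.57 and 0.22. For Cdt1, Mcm5, Gins2 and Gins3 each tested probe set was lower in knockout cells.

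**Figure D4:**
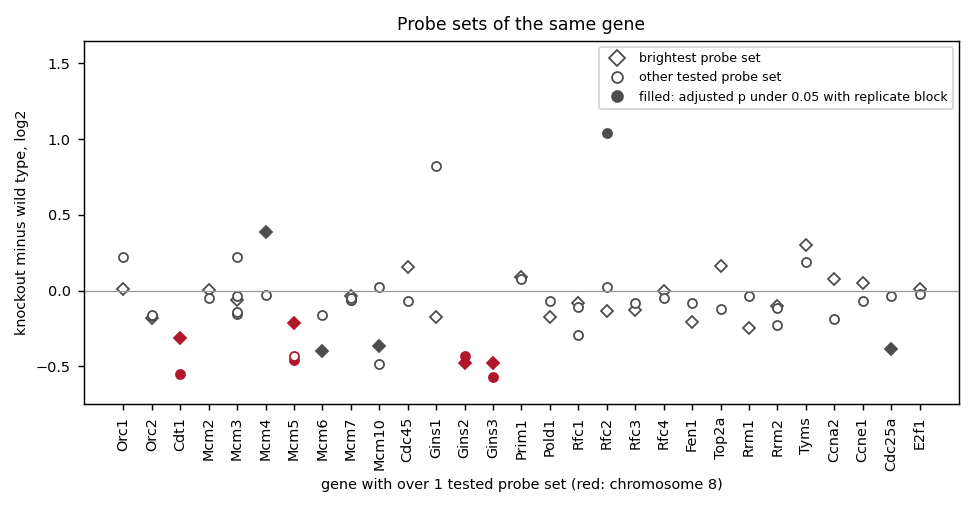
Knockout minus wild type difference in log2 signal (y axis) of every tested probe set of the 29 genes with several (x axis), with diamonds for the brightest probe set, circles for the others, red for chromosome 8, and filled symbols for an adjusted p under 0.05 with the replicate block. The probe sets of Cdt1, Mcm5, Gins2 and Gins3 all lie below 0, while Rfc2 spans -0.13 to 1.04.

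The arrays also differed by number. At 6 members both arrays numbered 1 lay below the other 4, and at 3 they lay above, against 16.9% and 23.6% of all tested genes. Orc2, Fen1 and Ccne1 were lower on these arrays by 0.47, 0.54 and 0.32, and Pold1 and Rfc4 higher by 0.41 and 0.29. For all 5 this gap was wider than that between the genotypes, and the feeder markers were lower on these 2 arrays too, at 8.13 and 8.01 against 8.64 to 9.00. Their part in the values was not tested.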

How the data were processed

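Gene expression was measured on 6 Affymetrix mouse arrays, 3 per genotype, and the deposited table holds log2 MAS5 signals, per the submitters' processing notes, which name MAS5 without a version. The scale was settled from the values: the linear trimmed mean, with 2% taken off each end, was 497.0 to 497.3 on each array. No further normalization was applied. Array medians were 6.09 to 6.22; for arrays the number limits the precision. Detection calls and control probe sets were not used here.

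Of the probe sets, 34945 named 1 gene, 932 several and 9160 none here. Gene identifiers matched a RefSeq table (GRCm38.p6) for 34741, which gave symbols, chromosomes and gene order. Probe sets with a mean below the 40th percentile (5.27) were left out. Knockout was tested against wild type with limma 3.58.1 in R 4.3.3 (lmFit, eBayes with an intensity trend, two-sided, Benjamini-Hochberg over all 27022 tested probe sets, threshold 0.05). The fit without the block was checked on simulated data with independent arrays, and the fit with the block was not. Errors are SD over 3 arrays or SE of the fit. The labels number the replicates 1 to 3 in both genotypes. Deviations from the genotype means correlated between same-numbered arrays at r = 0.50, 0.23 and 0.24 over the tested probe sets, themselves no replicates. All exceed 0.1, so values with the replicate number as a block are given where they change a call. Arrays of unlike number reached 0.23, so numbers 2 and 3 are not clearly paired.

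Members and lists were chosen with earlier results of these data known. Text names every member at its brightest tested probe set, with the others by value where they differ in sign or call and by range otherwise, and up to 4 called genes per further list, largest difference first. Promoters were those of called members, up to 6, in the order of their largest called difference. Rfc2, Gins2, Ccne2 and Mcm4 had no entry. Genes beside members were chosen after their values were seen.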

Additional observations from a re-analysis of the deposited data

How the results depend on the processing

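Of all tested probe sets 175 passed limma's threshold, and 57 did without the intensity trend, 2129 with the replicate block, 2033 with both arrays numbered 1 left out and 1549 with the block and no genes of chromosomes 8 and Y. Leaving out 1 array gave 31 to 431, and with the block 711 to 3328 (3328, 1010 and 711 as wild type replicate 1, 2 and 3 was removed, and 3309, 1019 and 734 for knockout). Of member genes 0 passed, against 9 with the block, 8 with both arrays numbered 1 left out, 1 with the mean over a gene's probe sets and 4 with the block and no genes of chromosomes 8 and Y. Leaving out 1 array gave 0 to 1, and with the block 14, 2 and 0 for replicates 1, 2 and 3 of either genotype. Of member probe sets 1 passed, against 0 without the trend, 14 with the block, 13 with both arrays numbered 1 left out, 0 with no genes of chromosomes 8 and Y, and 5 for these with the block. Leaving out 1 array gave 0 to 2, and with the block 21, 4 and 3 for replicates 1, 2 and 3. Of other replication and cycle genes 0 passed, against 22 with the block, 20 with both arrays numbered 1 left out and 14 with the block and no genes of chromosomes 8 and Y. Leaving out 1 array gave 0 to 3, and with the block 30, 7 and 6. The members' median of -0.11 became -0.15 on values centred on array medians and -0.062 with no genes of chromosomes 8 and Y, with or without the block. That of the 5 members on chromosome 8 became -0.44 without _x_at and _s_at probe sets and -0.43 with the mean over a gene's probe sets. At the brightest probe set 8 members changed sign in some setting, none past 0.08 in size in the fit reported and 0 of them called. Fits with the block and 1 array left out, and those with the block and no genes of chromosomes 8 and Y, were chosen after seeing the data. The block changed no call of a member other than those given in the results. The 3 arrays per genotype limit the precision of every value, and the cause of these shifts was not tested.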
